A study of Homo sapiens with 8 samples.

Results

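The genes that copy DNA were followed across 8 arrays of lung cancer cells. The set holds 44 genes for proteins that replicate DNA, restrain or start that process, supply its building blocks, or package and repair the copied strand. For each gene the probe set with the highest mean over the 8 arrays was taken from the probe sets annotated to that symbol alone. All 44 were measured, among 18244 genes in all, and all 44 exceeded the median signal on 2 or more arrays, the filter that 11926 genes passed. The members have 110 probe sets, and 31 members have more than 1.

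HCC827 cells, a lung adenocarcinoma line with an activating EGFR mutation, and A549 cells, a lung adenocarcinoma line without one, were each grown on a collagen scaffold (3D) and in culture dishes (2D), with gefitinib or without it. Gefitinib inhibits the EGFR kinase and was used at 1 µM. The design asks how lines that differ in EGFR status respond to the inhibitor in each culture. Each line thus has 4 groups with 1 array each: 3D gefitinib, 3D control, 2D gefitinib and 2D control. The 2D groups of HCC827 are called by their labels (2D labelled gefitinib, 2D labelled control). In 3D, 100000 cells were seeded and kept for 14 days, and the inhibitor was present for 3 days from day 11. In 2D, 200000 cells were seeded and kept for 7 days, and the labels do not state clearly when the inhibitor was added or for how long. Controls received no inhibitor. The scaffold samples were lysed with beads and extracted with another kit than the dish samples, and 100 ng of total RNA was labelled from each. Each line is 1 established cell line, and no condition was repeated.

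DNA replication starts with licensing in G1 phase: the origin recognition complex, CDC6 and CDT1 load the MCM helicase onto DNA. In S phase CDC45 and the GINS complex turn that helicase on, polymerases copy each strand, the sliding clamp PCNA holds them on the template, and ribonucleotide reductase supplies deoxynucleotides. Many of these genes are transcribed by E2F factors, which the retinoblastoma protein holds back until cyclin D and cyclin E kinases release them, and EGFR signalling through the ERK kinases drives cyclin D1 in lung cancer cells.

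The labels of the lines fitted their markers: 4 of 4 genes listed for HCC827 (EGFR among them) had log2 signals of 10.40 to 12.79 in HCC827 and 5.97 to 8.66 in A549, and 4 of 4 listed for A549 (ALDH1A1 among them) had 6.33 to 8.48 in HCC827 and 13.37 to 14.81 in A549. The treatment labels of the HCC827 2D pair ran the other way from those of the 3D pair. DUSP6, an ERK-induced phosphatase, had a log2 signal of 8.16 in HCC827 3D gefitinib against 11.48 in HCC827 3D control, but 10.21 in HCC827 2D labelled gefitinib against 6.57 in HCC827 2D labelled control. ETV5, an ERK-induced transcription factor, and CCND1, cyclin D1, showed the same opposite differences (ETV5 -1.79 in 3D and 2.52 in 2D as labelled, CCND1 -1.78 and 2.51). Whether these 2 arrays were exchanged was not tested. That pair is kept as labelled below. An exchange would turn the sign of every HCC827 2D gefitinib difference. It would also change the HCC827 culture differences and the differences between the lines in 2D. These results have no version without the pair. The HCC827 3D gefitinib pair and the differences within A549 do not use it. On the scaffold the actin probe sets at the 3' end exceeded those at the 5' end by 1.67 to 2.64 on the log2 scale, against -0.14 to -0.05 in dishes, a measure of RNA integrity. Culture and RNA integrity therefore cannot be told apart. Of the markers of other cell types, 4 of 6 fibroblast genes (COL1A2, COL3A1, DCN and PDGFRB) and the leukocyte gene PTPRC did not pass the filter. The array mean of the 6 fibroblast markers was 6.64 to 7.17 in HCC827 and 6.48 to 6.80 in A549, near the 6.63 to 6.77 of the background probe sets. LUM, lumican, was the exception, at 9.93 in HCC827 2D labelled control. The mean of the 3 endothelial markers was 6.92 to 7.17 in HCC827 and 6.94 to 7.23 in A549, and that of the 4 leukocyte markers 6.90 to 7.25 and 7.49 to 7.89. PTPRC lay below the background probe sets (5.93 to 6.11), while CD68, a lysosomal protein, differed with the treatment labels in HCC827 (8.71 in 3D gefitinib against 10.16 in 3D control, 9.93 in 2D labelled gefitinib against 8.82 in 2D labelled control).

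The replication genes moved together across the arrays, and the HCC827 arrays held both ends of their range. The mean deviation of the 44 genes from their own averages was -0.69 in HCC827 3D gefitinib against 0.44 in HCC827 3D control. It was 0.85 in HCC827 2D labelled gefitinib against -0.39 in HCC827 2D labelled control. The A549 arrays lay between these, at -0.38 (3D gefitinib) and -0.31 (3D control), and at 0.23 (2D gefitinib) and 0.25 (2D control). The lowest level over the 8 arrays was in HCC827 3D gefitinib for 22 members, in HCC827 2D labelled control for 11, in A549 3D gefitinib for 7 and in A549 3D control for 4. The highest was in HCC827 2D labelled gefitinib for 32 members, in HCC827 3D control for 8 and in each A549 2D array for 2. Correlations were taken over the 8 arrays, which share the conditions of the design. That of a member with the mean of the other members had a median of 0.88 (all genes -0.09) and was over 0.9 for 19 members. FEN1, the flap nuclease of lagging-strand maturation, had the highest, 0.98. POLD1 (-0.17) and POLE (-0.07), the catalytic subunits of the replicative polymerases delta and epsilon, had the lowest. No share over all genes stands beside the count over 0.9 or the counts of highest and lowest arrays. In bulk RNA a smaller share of cells in S phase and less of these RNAs in each cell cannot be told apart.

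**Figure D1:**
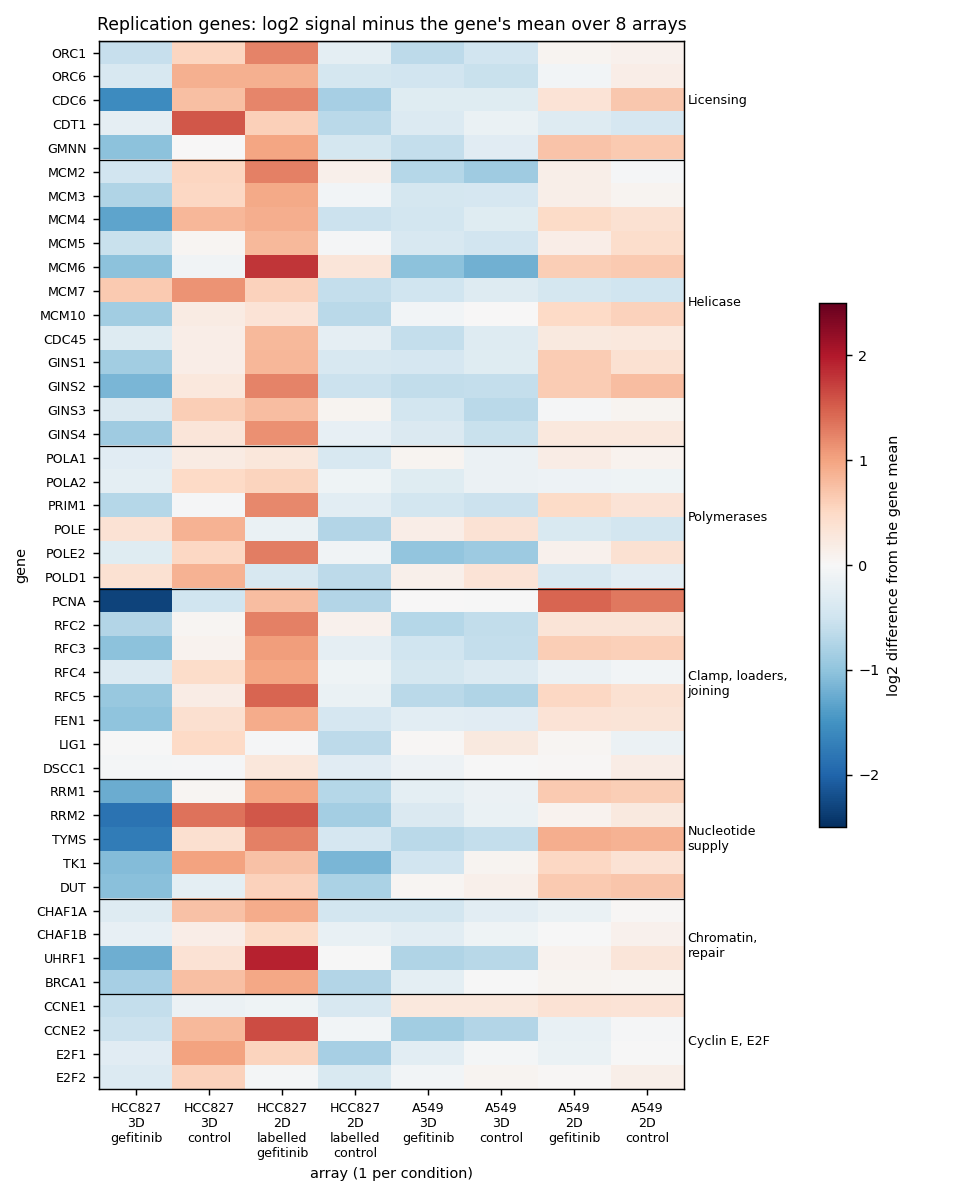
Log2 signal of the 44 replication genes (rows, by role) minus each gene's mean over the 8 arrays (columns, 1 array per condition); red is above and blue below the mean. The columns HCC827 3D control and HCC827 2D labelled gefitinib are mostly red, and HCC827 3D gefitinib is mostly blue. With the probe sets used, POLD1, POLE, LIG1, CCNE1 and MCM7 follow the other genes least (correlations of -0.17 to 0.31).

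Promoter sequences show what many of these genes share. Of the 44 genes, 39 had a RefSeq promoter sequence (GRCh38.p14, 250 bases before to 50 after the start). E2F binding motifs were searched as TTTCCCGC, TTTCGCGC, TTTGCCGC and TTTGGCGC on both strands, words that can overlap each other. They were found in 20 of the 39 promoters (51.3%), against 5.33% of 9807 promoters of genes past the filter and 3.33% of all 27305. Of 15 mitosis genes with a sequence 2 held one, and 10 of those 15 held a cell cycle homology region (TTTGAA or TTCGAA, either strand), which 2 of the 39 replication promoters and 11.2% of the promoters of genes past the filter held. The box bound by NF-Y (CCAAT, either strand) was in 20 of the 39, in 14 of the 15 mitosis promoters and in 36.4% of promoters of genes past the filter. The stretches below surround E2F words, in capitals, of 6 members. These 6 were picked among the members with a word wholly before the annotated start and do not stand for all 39. They are MCM6, a helicase subunit, PCNA, the clamp, UHRF1, which recognises hemimethylated DNA behind the fork, CDT1, a licensing factor, E2F1, itself an E2F factor, and POLE.
MCM6 (chr2:135876496-135876555, minus strand): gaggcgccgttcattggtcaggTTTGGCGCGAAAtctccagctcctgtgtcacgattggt
PCNA (chr20:5126648-5126707, minus strand): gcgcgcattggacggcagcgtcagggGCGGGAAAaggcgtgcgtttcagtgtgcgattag
UHRF1 (chr19:4909441-4909500, plus strand): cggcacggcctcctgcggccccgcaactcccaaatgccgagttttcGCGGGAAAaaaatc
CDT1 (chr16:88803728-88803787, plus strand): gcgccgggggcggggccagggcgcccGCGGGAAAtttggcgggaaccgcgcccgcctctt
E2F1 (chr20:33686386-33686445, minus strand): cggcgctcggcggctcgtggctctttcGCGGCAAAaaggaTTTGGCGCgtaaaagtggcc
POLE (chr12:132687343-132687402, minus strand): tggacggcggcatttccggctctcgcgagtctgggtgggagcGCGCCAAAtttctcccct
Each is read 5′ to 3′ on the gene's own strand and ends before the annotated start. In MCM6 the capitals hold 2 words on opposite strands that overlap. The gefitinib difference in HCC827 3D had a median of -1.03 over the 20 members with a word and -1.06 over the 19 without one. RRM2, which had the largest difference, had none in its window. POLD1, CCNE1, TK1, RRM1, FEN1 and BRCA1 also had none, and the word of CDC6 lay after the start.

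**Figure D2:**
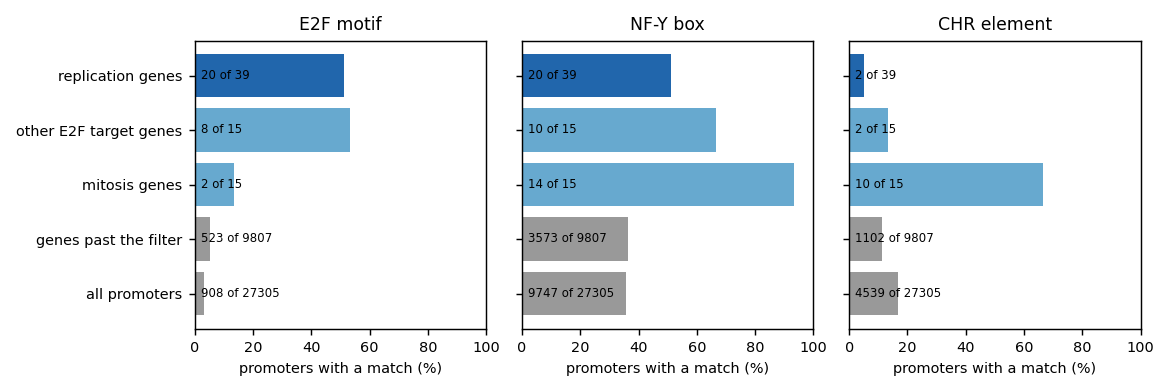
Share of promoters (percent, horizontal axis) with at least 1 match to the E2F, NF-Y or CHR motif in 5 sets of genes (bars, with counts written on them). The replication genes and the other E2F target genes had the high E2F shares, and the mitosis genes the high CHR share.

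In HCC827 on the scaffold, replication genes were lower with gefitinib throughout the set. All 44 differences were below 0 with the deposited values (43 of 44 with cyclic loess scaling, where DSCC1 was above 0, and with the largest-variance probe set, where GINS1 was), with a median of -1.05 against -0.11 over all genes past the filter. At least 2-fold lower were 25 of 44, against a background of 3.14% of all genes, and 0 were 2-fold higher (background 0.797%). When a gene's probe sets were averaged, 13 of 44 were at least 2-fold lower (median -0.78). Of all 110 probe sets of the members 103 were below 0 and 7 above 0 (median -0.77). Of the 31 members with more than 1 probe set, 6 had probe sets of opposite sign (BRCA1, CCNE1, CHAF1B, GINS1, RFC3 and RFC4). With 1 array on each side these differences carry no replicate error. The limma fit given next takes its spread from the A549 arrays. That spread is the change of their gefitinib difference between cultures, not replicate scatter. When limma was given the spread of the 4 A549 arrays, taken to hold for HCC827 too (7 coefficients, 1 residual degree of freedom), 43 of the 44 had adjusted p under 0.05 and were lower, against a background of 20.4% (6.73% higher). The other gene was DSCC1 (-0.03 ± 0.13 SE, adjusted p = 0.889), part of an alternative clamp loader. The 3 probe sets of DSCC1 ranged from -0.75 to -0.03, and the one used differed least. In the same pair the 3' signal exceeded the 5' signal of GAPDH by 1.57 in HCC827 3D gefitinib against 0.97 in HCC827 3D control, and that of actin by 2.64 against 2.34. The epithelial keratins KRT8, KRT18 and KRT19 were lower by log2 differences of -1.18, -1.10 and -1.04. The part of these in the result was not tested.

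The genes of nucleotide supply had the largest differences in that pair, with 4 of 5 at least 2-fold lower. RRM2, the S-phase subunit of ribonucleotide reductase, had a log2 signal of 8.16 in HCC827 3D gefitinib against 11.37 in HCC827 3D control, 9.23-fold lower (-3.21 ± 0.12 SE, adjusted p = 1.12e-06, limma with the A549 spread). In A549 RRM2 had 9.64 and 10.09 with gefitinib (3D and 2D) and 9.83 and 10.24 without it (3D and 2D), so the gefitinib-treated HCC827 scaffold lay below all 4 A549 arrays and its control above all 4. TYMS, thymidylate synthase, had 8.63 in HCC827 3D gefitinib against 10.78 in HCC827 3D control (4.44-fold lower), and TK1, thymidine kinase, had 8.83 against 10.92 (4.25-fold lower). RRM1, the large reductase subunit, was 2.43-fold lower, at 8.46 against 9.74. Its 4 probe sets ranged from -1.28 to -0.29, and the one used differed most. DUT, which removes dUTP, was 1.74-fold lower, at 8.99 against 9.79. Apart from DUT, these enzymes feed the deoxynucleotide pools by salvage, reduction or methylation.

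All 5 licensing genes were at least 2-fold lower in HCC827 3D gefitinib. CDC6, the helicase loader, had 7.66 against 9.99 in HCC827 3D control (5.01-fold lower) and 8.93 and 9.58 in gefitinib-treated against 8.94 and 9.91 in control A549 (3D and 2D). Its level in the treated HCC827 scaffold was the lowest of the 8 arrays. CDT1, its partner, had 8.05 against 9.83 (3.43-fold lower), and here the HCC827 3D control stood above all other arrays while the treated array was within the 7.60 to 8.86 of the rest. ORC1 had 6.92 against 8.03 and ORC6 8.48 against 9.78, subunits of the origin recognition complex. GMNN, geminin, which inhibits CDT1 in S phase, went the same way, with 8.24 against 9.29 (2.06-fold lower). Licensing factors and their inhibitor thus differed in the same direction.

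Of the 12 helicase genes, 7 were at least 2-fold lower, and the median was -1.03. MCM4 had 8.54 in HCC827 3D gefitinib against 10.68 in HCC827 3D control (4.43-fold lower), the largest difference of the helicase subunits. The 5 probe sets of MCM4 ranged from -2.15 to -0.15, and the one used differed most. The other subunits ranged down to MCM7, at 12.25 against 12.72 (1.39-fold lower). GINS2, part of the GINS complex, had 6.66 against 8.06 (2.65-fold lower) and so stood at the 6.63 to 6.77 of the background probe sets when treated. From a level at the background its fold is a lower bound. CDC45, at 7.27 against 7.77, was 1.41-fold lower. Its 3 probe sets ranged from -1.29 to -0.50, and the one used differed least.

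The 6 polymerase genes differed least: none was 2-fold lower, and they ranged from -0.82 (POLE2) to -0.47 (POLD1). The second POLA2 probe set, not used, was at -1.02. POLE had 9.45 in HCC827 3D gefitinib against 9.97 in HCC827 3D control, and POLD1 9.32 against 9.79, about the same step. Both treated values were above every 2D array of either line. Among clamp and joining genes 4 of 8 were at least 2-fold lower. PCNA led them, with 9.15 against 10.95 (3.49-fold lower), the lowest level of the 8 arrays, and A549 held 11.45 to 12.90. The second PCNA probe set, not used, was at -0.19. FEN1 had 8.34 against 9.75 (2.66-fold lower), RFC5 and RFC3 of the clamp loader were 2.20-fold and 2.16-fold lower, and LIG1, the ligase that seals Okazaki fragments, 1.42-fold lower (8.81 against 9.32). The 4 probe sets of RFC3 ranged from -1.11 to 0.07, and the one used differed most. DSCC1 had 7.47 against 7.49.

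Of the 4 chromatin and repair genes 3 were at least 2-fold lower. UHRF1 had 7.74 in HCC827 3D gefitinib against 9.33 in HCC827 3D control (3.01-fold lower). Its 3 probe sets ranged from -1.59 to -0.06, and the one used differed most. BRCA1, of homologous recombination, had 7.19 against 8.78 (3.00-fold lower). The 5 probe sets of BRCA1 ranged from -1.59 to 0.0045, and the one used differed most. CHAF1A, the large subunit of the histone chaperone CAF-1, had 8.18 against 9.23. CHAF1B, its partner, had 7.11 against 7.48, near the array medians of 7.27 to 7.34. Of the G1/S regulators, E2F1 had 7.37 against 8.66 (2.44-fold lower) and CCNE2, cyclin E2, 7.02 against 8.36 (2.54-fold lower). The second CCNE2 probe set, not used, was at -0.32. CCNE1, cyclin E1, was closer, with 8.45 against 8.90 (1.37-fold lower).

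**Figure D3:**
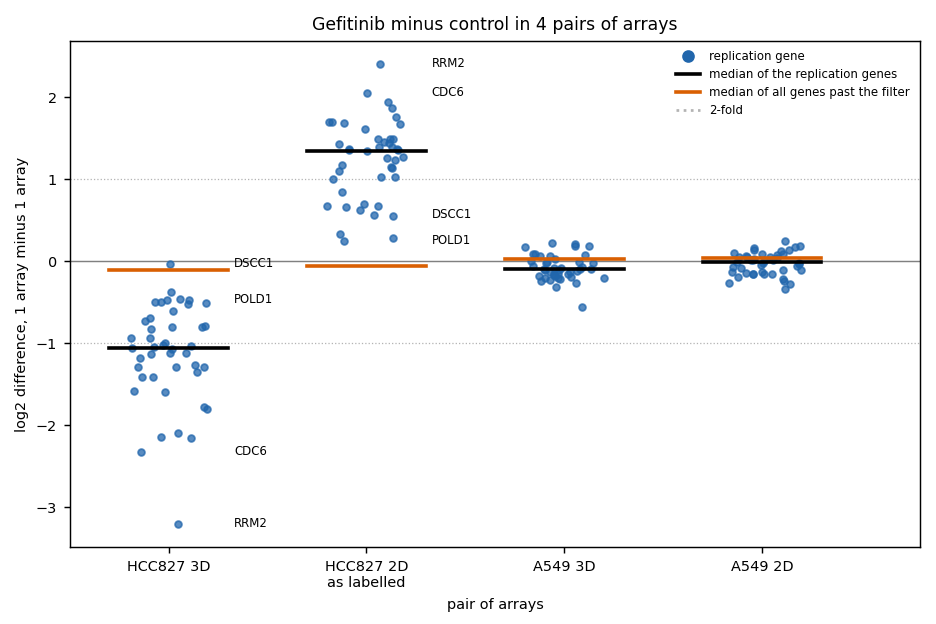
Log2 difference, gefitinib minus control, of each replication gene (points) in 4 pairs of single arrays; black lines are the members' medians (-1.05, 1.35, -0.10 and -0.01), orange lines the medians of all genes past the filter, dotted lines 2-fold. Points lie below 0 in HCC827 3D, above 0 in HCC827 2D as labelled and around 0 in A549.

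In the HCC827 2D pair as labelled the same genes were higher with gefitinib. All 44 differences were above 0, under every scaling and probe set choice run, with a median of 1.35 against -0.05 over all genes, and 33 of 44 were at least 2-fold higher against a background of 2.36% (0 were 2-fold lower, background 1.62%). RRM2 had 11.56 in the array labelled gefitinib against 9.15 in the array labelled control (5.31-fold higher), and CDC6 10.45 against 8.40 (4.14-fold higher). UHRF1, at 10.88 against 8.94, was 3.84-fold higher, TK1, at 10.65 against 8.78, 3.64-fold, and GINS2, at 9.03 against 7.27, 3.39-fold. The smallest differences were those of POLD1 (8.53 against 8.29), CCNE1 (8.93 against 8.64), E2F2 (7.70 against 7.37), POLE (8.92 against 8.37) and DSCC1 (7.80 against 7.23). With the A549 spread, limma called 41 of 44 higher and 0 lower, against backgrounds of 9.96% and 12.5%. POLD1, CCNE1 and E2F2 were the members not called.

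Across the members, those with the larger gefitinib difference in one HCC827 culture tended to have the larger opposite difference in the other (r = -0.78 over 44 genes, -0.55 over all genes, a description over genes that share 4 arrays). The 7-coefficient fit put the difference between the pairs below 0 with adjusted p under 0.05 for 44 of 44 members (adjusted p 7.54e-08 to 0.0241), where 19.3% of all genes were called lower and 13.3% higher. For RRM2 that difference was -5.61 ± 0.17 (SE) and for POLD1 -0.72 ± 0.17. A fit that averages both HCC827 cultures called 0 of 44 members (limma, 6 coefficients, adjusted p 0.927 to 0.998), 0 had an unadjusted p under 0.05, and 0% of all genes were called. This average joins pairs of opposite sign, which also enter the residual, so 0 calls say nothing about either pair alone. The 7-coefficient fit of the same average called 5 (2 higher and 3 lower, backgrounds 2.06% and 9.51%).

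In A549 the gefitinib differences were small in both cultures. The differences had a median of -0.10 in 3D (32 of 44 below 0) and -0.01 in 2D (23 of 44 below 0), and none reached 2-fold (backgrounds 0.00839% higher and 0% lower in 3D, 0.00839% and 0.0168% in 2D). TK1 in 3D, with 9.44 in gefitinib-treated cells against 9.99 in control cells, had the largest (-0.55), and its 2D values were 10.44 against 10.28. CDC6 had the largest in 2D, at 9.58 against 9.91. RRM2 differed by -0.19 in 3D and -0.15 in 2D. Averaged over cultures, limma with 6 coefficients called 0 of 44 members (0 with unadjusted p under 0.05, background 0%) and with 7 coefficients also 0 (1 with unadjusted p under 0.05). The test of HCC827 3D against A549 itself, with the A549 spread, called 36 of 44 members lower and 0 higher (backgrounds 16.9% and 3.54%). Among the 8 not called were POLE (-0.46 ± 0.16 SE, adjusted p = 0.0741) and POLD1 (-0.30 ± 0.15, adjusted p = 0.174). Another contrast, with 6 coefficients, set the average of both HCC827 cultures against A549. It called 0 of 44 (0 with unadjusted p under 0.05, background 0%). That average joins pairs of opposite sign, which also enter the residual, so 0 calls say nothing about the HCC827 3D pair alone.

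**Figure D4:**
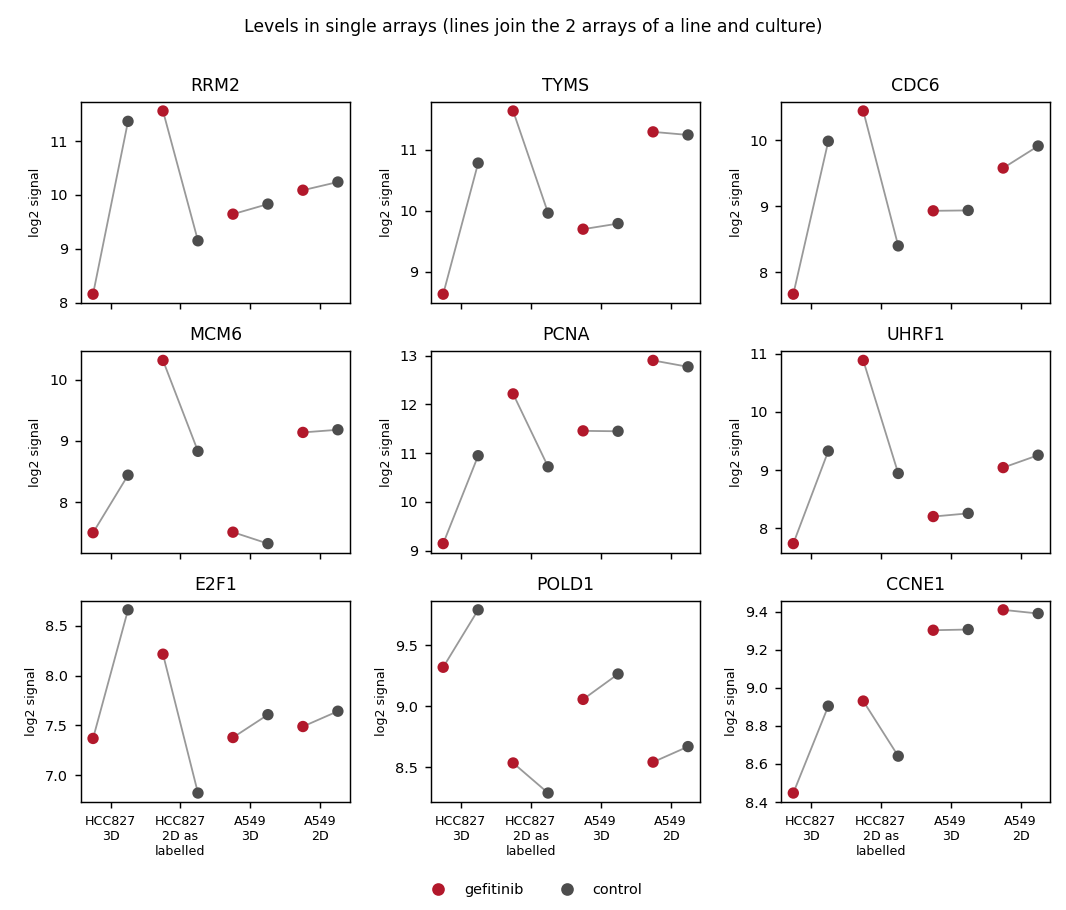
Log2 signal of 9 replication genes in each of the 8 arrays (red, gefitinib; grey, control; lines join the arrays of the same line and culture; each panel has its own vertical axis, which does not start at 0). In the 6 panels from RRM2 to UHRF1 the HCC827 3D gefitinib point is low and the HCC827 2D labelled gefitinib point high, POLD1 is higher in 3D than 2D in both lines, and CCNE1 is lower in HCC827 than in A549.

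On the scaffold A549 cells had lower levels of most replication genes than in dishes. In the gefitinib pair 42 of 44 were lower in 3D (median -0.60, against 0.13 over all genes) and in the control pair 39 of 44 (median -0.59, against 0.14), and all 39 were lower in both. At least 2-fold lower were 11 with gefitinib (background 2.47%) and 7 without it (background 2.51%), and 0 were 2-fold higher in either (backgrounds 6.49% and 7.35%). MCM6 had the largest difference, with 7.51 and 7.32 in 3D (gefitinib and control) against 9.14 and 9.18 in 2D. TYMS had 9.70 and 9.79 in 3D against 11.29 and 11.24 in 2D, and PCNA 11.46 and 11.45 against 12.90 and 12.77. In these 3 genes the arrays of the cultures lay more than 2-fold apart without overlap. POLE and POLD1 were the members higher in 3D in both pairs, with POLE at 9.25 and 9.45 in 3D against 8.71 and 8.64 in 2D, and POLD1 at 9.06 and 9.27 against 8.54 and 8.67. CDT1 (0.25), LIG1 (0.38) and MCM7 (0.18) were higher in 3D in the control pair only. For MCM7 this held in 1 of 4 probe sets, with the lowest at -1.29. MCM7 was below 0 there when probe sets were averaged or the largest-variance one was taken. The arrays of the cultures did not overlap for 37 members that were lower in 3D (background 28.2%) and 2 that were higher (background 51.5%).

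Against the residual of the 6-coefficient fit, which holds the opposite HCC827 pairs, none of these 44 culture differences in A549 had adjusted p under 0.05 (backgrounds 16.3% higher and 6.01% lower). MCM6 came nearest (-1.74 ± 0.59 SE, adjusted p = 0.104), and 2 members had an unadjusted p under 0.05. With the A549 spread alone, limma called 32 lower and 2 higher (backgrounds 22.4% and 41.7%), MCM6 with adjusted p = 3.49e-07, POLE (0.68 ± 0.09 SE) with 1.16e-04 and POLD1 (0.56 ± 0.09) with 2.27e-04. The 3' to 5' signal of actin differed with culture in the same arrays, and its part in these differences was not tested.

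In HCC827 the culture difference depended on the treatment label. Between the arrays with the gefitinib label 40 of 44 members were lower in 3D, with a median of -1.70 (all genes 0.06), and 32 were at least 2-fold lower and 0 higher (backgrounds 11.1% and 10.1%). Between the control arrays 42 of 44 were higher in 3D, with a median of 0.60 (all genes 0.13; 31 higher and 13 lower with the largest-variance probe set), and 13 were at least 2-fold higher and 0 lower (backgrounds 8.48% and 5.62%). RRM2 had 8.16 and 11.37 in 3D (gefitinib and control) against 11.56 and 9.15 in 2D (labelled gefitinib and labelled control). The ranges of its cultures thus overlapped. In the 7-coefficient fit 40 were lower and 2 higher between the gefitinib arrays (backgrounds 30.8% and 33.9%), and 36 were higher and 1 lower between the control arrays (backgrounds 35.6% and 22.7%). Of the 4 culture pairs the control pair of HCC827 was the least even over probe sets, with 19 of 31 members having probe sets of opposite sign.

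Of the 44 members, 38 were lower in 3D in the gefitinib pair and higher in the control pair. The other 6 went one way in both. POLD1 (9.32 and 9.79 in 3D against 8.53 and 8.29 in 2D), POLE (9.45 and 9.97 against 8.92 and 8.37), MCM7 (12.25 and 12.72 against 12.18 and 11.01) and LIG1 (8.81 and 9.32 against 8.78 and 8.16) were higher in 3D, each without overlap of the cultures. The gefitinib pair's differences of MCM7 and LIG1 were 0.07 and 0.03. Both were below 0 when probe sets were averaged or the largest-variance one was taken, and that of LIG1 also with cyclic loess scaling. MCM6 (7.50 and 8.44 against 10.32 and 8.83) and RFC2 (8.32 and 9.11 against 10.33 and 9.18) were lower in 3D. In the control pair the 3 probe sets of MCM6 ranged from -0.84 to 0.67, and RFC2 differed by -0.07. Members without overlap were thus 4 higher (background 40.0%) and 2 lower (background 27.2%). POLD1 was the 1 member called in the 6-coefficient fit (1.15 ± 0.21 SE, adjusted p = 0.0218, backgrounds 19.7% higher and 13.7% lower; with 7 coefficients 7 were called higher and 27 lower, backgrounds 39.5% and 30.1%). It was higher in 3D in 2 of 2 pairs, and this call was lost when any A549 array was left out (adjusted p 0.102 to 0.103). POLE missed it (1.06 ± 0.29, adjusted p = 0.0524). The test of the culture difference between the lines called 0 of 44 members (0 with unadjusted p under 0.05, limma, 6 coefficients), and 0% of all genes. Its residual holds the opposite HCC827 pairs (SE of RRM2 1.91), so 0 calls do not show that the lines have the same culture difference. This contrast was not run with 7 coefficients.

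**Figure D5:**
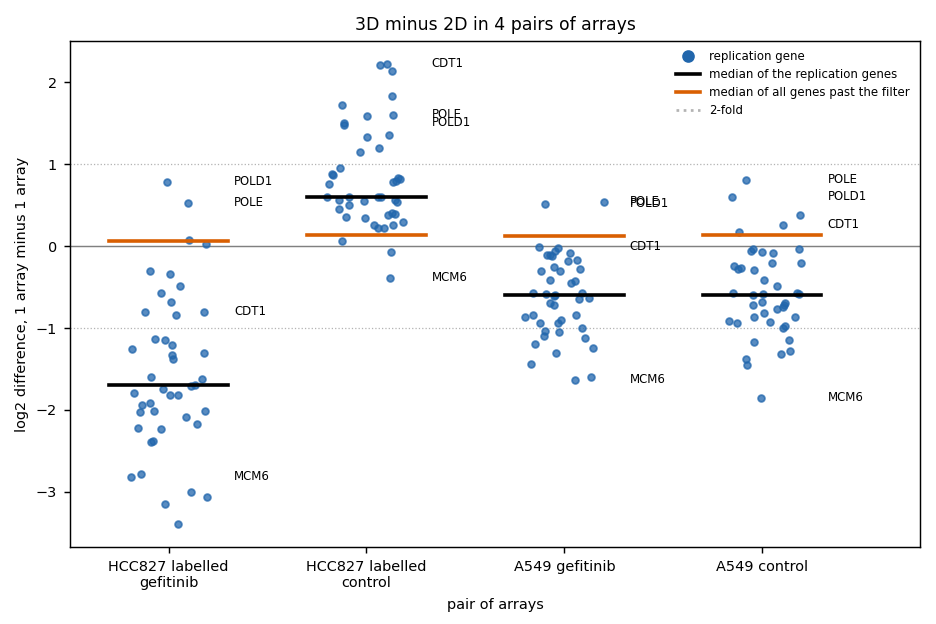
Log2 difference, 3D minus 2D, of each replication gene (points) in 4 pairs of single arrays; black lines are the members' medians (-1.70, 0.60, -0.60 and -0.59), orange lines the medians of all genes past the filter, dotted lines 2-fold. Most points lie below 0 in every pair but the HCC827 pair labelled control, and POLE and POLD1 lie above 0 in all 4.

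Between the lines most replication genes had no constant difference. In 3D gefitinib 28 of 44 were lower in HCC827 than in A549 (median -0.26), and in 3D control 40 of 44 were higher (median 0.78). In 2D labelled gefitinib 37 were higher in HCC827 (median 0.67), and in 2D labelled control 41 were lower (median -0.50). The 2D differences between the lines rest on the labels of the HCC827 2D pair, and an exchange of its arrays was not tested. At least 2-fold, the counts were 1 higher and 5 lower in 3D gefitinib (backgrounds 7.98% and 13.7%), 14 higher and 0 lower in 3D control (9.22% and 9.18%), 10 higher and 0 lower in 2D labelled gefitinib (7.73% and 8.90%), and 0 higher and 10 lower in 2D labelled control (9.82% and 8.60%). CCNE1 was the 1 member whose lines did not overlap, and it was lower in HCC827 (backgrounds 14.4% higher, 18.2% lower). Its levels were 8.45, 8.90, 8.93 and 8.64 in HCC827 (3D gefitinib, 3D control, 2D labelled gefitinib and 2D labelled control) against 9.30, 9.31, 9.41 and 9.39 in A549 in the same order. It was also the 1 member called (limma, 6 coefficients, -0.62 ± 0.15 SE, adjusted p = 0.0287, backgrounds 22.0% higher and 26.1% lower), and the call was lost when any A549 array was left out (adjusted p 0.168 to 0.173). PCNA had the largest mean difference (-1.39 ± 0.57, adjusted p = 0.111), and MCM7 one of the higher ones (0.87 ± 0.29, adjusted p = 0.0709). With the A549 spread 20 were called higher and 9 lower (backgrounds 35.8% and 39.2%).

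Other genes of the cell cycle were set beside the members. Of 28 further replication genes past the filter, all were lower in HCC827 3D gefitinib than control, but 1 was 2-fold lower (median -0.54), and in 2D as labelled 2 were 2-fold higher (median 0.55). Of 15 further E2F targets 5 were 2-fold lower in 3D (median -0.93) and 9 were 2-fold higher in 2D as labelled (median 1.13). Among them RAD51AP1, a recombination cofactor, had 7.38 in HCC827 3D gefitinib against 9.13 in control, and 9.54 in 2D labelled gefitinib against 8.03 in 2D labelled control. Of 20 mitosis genes 17 were 2-fold lower in 3D (median -1.33) and 19 were 2-fold higher in 2D as labelled (median 2.01). UBE2C, a ubiquitin-conjugating enzyme of mitotic exit, had 9.57 against 11.39 in 3D and 11.62 against 9.77 in 2D as labelled. The same backgrounds as for the members apply to these counts (3.14% lower in 3D, 2.36% higher in 2D).

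Of 10 E2F and retinoblastoma family genes that are not members, E2F8, a repressor of the family, was the 1 that was 2-fold lower in HCC827 3D gefitinib (6.78 against 7.91). It was higher in 2D labelled gefitinib (9.05 against 6.96), as was TFDP1, the dimer partner of E2F factors (11.31 against 10.23). E2F4, with 9.93 against 9.91 in 3D, and RBL2, with 9.35 against 9.34, differed by at most 0.02. Inhibitors of the cycle had no common direction (8 of 10 past the filter, median -0.16 in 3D). CDKN1C, p57, was higher in HCC827 3D gefitinib (10.29 against 8.44) and lower in 2D labelled gefitinib (8.01 against 10.15). CDKN2B, p15, likewise had 9.63 against 7.59 in 3D and 8.81 against 10.89 in 2D as labelled. CDKN1A, p21, had 8.34 against 9.01 in 3D.

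Outside the set, the genes whose levels followed the members' mean most closely over the 8 arrays were MND1 (r = 0.997), a meiotic recombination factor, SKA3 and DLGAP5 (0.986 and 0.985), of the mitotic spindle, ASF1B (0.986), a histone chaperone, HELLS (0.984), a chromatin remodeller, KIF4A (0.984), a kinesin, ATAD2 (0.983), and AURKB (0.982), a mitotic kinase. MND1 had 6.71 in HCC827 3D gefitinib against 8.23 in control, and 8.87 in 2D labelled gefitinib against 6.95 in 2D labelled control. Its A549 levels were 7.02 and 7.94 with gefitinib (3D and 2D) and 7.13 and 7.99 without it. ZHX1 (-0.95), RNF144B (-0.94), SH3RF2 (-0.93), CSNK1D (-0.92) and NATD1 (-0.91) ran most nearly opposite. These correlations describe 8 arrays and were the extremes of 11926 genes.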

How the data were processed

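RNA of 8 samples was measured on 3' expression arrays. The authors deposited log2 signals of 49495 probe sets. Per the submitters' processing notes they came from RMA (robust multi-array averaging), run under R 3.2.1. The array design, background step and build are not given in the sources used here. The number of arrays limits precision. Of 46617 probe sets in the platform annotation, 45284 carried 1 gene symbol and were used; 45214 of them matched RefSeq (GRCh38.p14). A gene was tested if its signal exceeded the array's median on 2 or more arrays (11926 genes).

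limma 3.58.1 in R 4.3.3 was run with a variance trend on all tested genes, two-sided, with Benjamini-Hochberg adjustment over all of them and a threshold of 0.05. The main model has 6 coefficients (mean, culture and treatment in each line). Its 2 residual degrees of freedom (2.36 more from the prior) are the change of the gefitinib difference between cultures, not replicate scatter. The 7-coefficient model gives each HCC827 array its own mean and takes the spread from A549. Its 1 residual degree of freedom (9.06 more from the prior) is the change of the gefitinib difference between the A549 cultures, not replicate scatter. Single pairs of arrays have no test; 2-fold counts stand beside those of all genes, the background. On simulated data of 11926 genes the main model recovered, for culture in A549, 61 of 100 shifts of log2 1, 98 of 100 shifts of log2 2, and 12 of 11726 genes without a shift. For gefitinib in HCC827 these were 60, 97 and 10. The residual of the real fit holds the opposite HCC827 pairs, so these rates need not hold for the members. For culture in A549 the standard error of RRM2 was 1.35, and MCM6 at -1.74 was not called. Sequences and motifs were processed with Python 3.11.15 and pandas 2.3.3.

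The members and the lists were chosen with earlier results of these data known. Named genes are any members, up to 4 of each further list with the largest difference, and the non-members most like or unlike the members' mean. Exceptions named after their values were seen are E2F4, RBL2 and CDKN1A. Alternatives were other probe set rules, cyclic loess scaling, other filters, models and fold thresholds, and leaving out arrays.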

Additional observations from a re-analysis of the deposited data

Results flagged for a closer look

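The gefitinib difference of the replication genes was not the same in different settings by a test of the difference itself, in limma's 7-coefficient fit. For 44 of 44 members it was lower in the HCC827 3D pair than in the HCC827 2D pair as labelled. With the deposited values all 44 were lower with gefitinib in 3D and higher in the array labelled gefitinib in 2D, and DUSP6 and CCND1 had the same opposite signs. For 36 of 44 members it was lower in HCC827 3D than in A549. Both tests take the spread of A549 as that of HCC827.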

How the results depend on the processing

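Counts depended most on which spread was used. The 6-coefficient counts of 1 (lines), 0 (culture, A549), 1 (culture, HCC827) and 0 (gefitinib, HCC827) became 29, 34, 34 and 5 with 7 coefficients. They became 25, 34 and 43 (lines, A549 culture, HCC827 gefitinib in 3D alone) without both HCC827 2D arrays, which by construction takes its residual from A549 alone as 7 coefficients do and so is no separate check; this alternative was chosen after seeing the data, as were those for pairs between lines. An additive fit called 3 (lines) and 8 (culture). Leaving out each array in turn gave 0 to 41 (lines), 0 to 34 (A549 culture), 0 to 42 (HCC827 culture), 0 to 43 (HCC827 gefitinib) and 0 to 0 (A549 gefitinib); counts were 0 in the first 4 without any A549 array, and large without any HCC827 array, since the opposite pairs then leave the residual. Cyclic loess, which moved array medians by up to 0.127, called 2 (lines). HCC827 culture had 2 calls with the mean of probe sets, 6 with the largest-variance probe set (5 in A549 culture) and 2 among genes above the median in all 8 arrays. The share of all genes called was counted only for the fits with 6 and 7 coefficients on all 8 arrays. The other counts here have no background and do not set the members apart from other genes.

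Of the 25 members 2-fold different in HCC827 3D, the mean of probe sets left 13, a threshold of log2 0.5 gave 38, and 7 coefficients 43. At log2 0.5 the counts were 1 (A549 3D gefitinib), 30 (HCC827 control culture; 8 with the mean of probe sets, 37 with 7 coefficients), 28 and 28 (A549 culture, gefitinib and control; 20 and 16 with the largest-variance probe set, 14 in control with cyclic loess). Between lines they were 17 (3D gefitinib; 2 with the mean of probe sets), 33 (3D control), 27 and 22 (2D labelled gefitinib and control). Shares of all genes past log2 0.5 were not counted, so the counts at that threshold have no background. Counts given with another probe set rule or with cyclic loess are those past log2 1. With the largest-variance probe set GINS1 was at 0.0886 in HCC827 3D gefitinib minus control, and MCM4 at -0.95 and MCM7 at -0.036 in HCC827 3D minus 2D control; the cause was not tested. Of the single-gene alternatives 494 kept direction and threshold, 10 moved, 8 lost the threshold and 3 reversed. Levels near the background probe sets (GINS2 at 6.66 in HCC827 3D gefitinib, CCNE2 at 6.69 in A549 3D gefitinib) limit those differences. No paired analysis was possible because each condition had 1 array and the labels carry no replicate numbers.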
